A study of Mus musculus with 28 samples.

Results

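Tight junctions seal the space between neighbouring epithelial cells near their apical side. The genes described here are 9 of the 54354 in the count table, chosen by symbol as tight junction genes of the gut epithelium: the claudins Cldn2, Cldn3, Cldn4, Cldn7, Cldn15 and Cldn23, and Ocln (occludin), F11r (junctional adhesion molecule A) and Tjp1 (the scaffold ZO-1). RNA sequencing covered 28 libraries of Lgr5-GFP mice, whose green fluorescent reporter marks cells using the stem cell gene Lgr5. Lgr5-high and Lgr5-low cells of the small intestine came from mice fed a control diet or a cystine diet (cystine is cysteine's oxidised dimer), giving 4 groups of 7 libraries. All groups carried the reporter. The labels do not give the age of the mice, the dose or duration of the diet, or whether replicate libraries are separate animals, and p-values therefore measure only library-to-library spread, which may be technical. The extraction protocol in the labels names organoids, while the design text speaks of cells taken from the intestine itself, and this difference was not resolved. The series title links dietary cysteine to intestinal stemness and to IL-22 from CD8+ T cells. The comparisons below ask whether tight junction transcripts differed between the populations and between the diets.

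Claudins are membrane proteins whose extracellular loops meet between cells and set which solutes pass. Cldn2 and Cldn15 form channels for small cations, which supply sodium for nutrient uptake in the small intestine. In the adult gut Cldn2 is mainly a crypt protein, whereas Cldn15 is found along crypt and villus. Cldn3, Cldn4 and Cldn7 are usually classed as barrier-forming, and the role of Cldn23 is less well described. Occludin lies in the same strands, F11r is an immunoglobulin-like adhesion protein, and Tjp1 ties the membrane proteins to the actin cytoskeleton. IL-22 signals through STAT3 and is known to raise Cldn2 in intestinal epithelium.

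Promoter sequences are shown for Cldn2 and Cldn15, which have the highest counts among these claudins and lay on opposite sides of the Lgr5-high to Lgr5-low comparison, and for Cldn7, whose window held a STAT motif. They are the 250 bases before a RefSeq start site in GRCm38.p6, on the plus strand, for Cldn2 (chrX:139800558-139800807), Cldn15 (chr5:136967619-136967868) and the second of 2 Cldn7 start sites (chr11:69965171-69965420). Capitals mark matches to TTTAT, the core of CDX binding sites, on either strand (ATAAA on the other), and in Cldn7 the match to the STAT motif TTCNNNGAA.
Cldn2: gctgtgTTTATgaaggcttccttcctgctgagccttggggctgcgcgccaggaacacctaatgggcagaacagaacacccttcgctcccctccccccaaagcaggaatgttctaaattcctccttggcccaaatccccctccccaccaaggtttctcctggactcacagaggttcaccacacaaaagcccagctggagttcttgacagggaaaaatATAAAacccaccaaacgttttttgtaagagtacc
Cldn15: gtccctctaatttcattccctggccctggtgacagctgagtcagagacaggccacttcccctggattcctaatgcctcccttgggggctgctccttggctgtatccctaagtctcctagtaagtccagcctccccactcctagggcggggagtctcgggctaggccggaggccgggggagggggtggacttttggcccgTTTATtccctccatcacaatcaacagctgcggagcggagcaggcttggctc
Cldn7: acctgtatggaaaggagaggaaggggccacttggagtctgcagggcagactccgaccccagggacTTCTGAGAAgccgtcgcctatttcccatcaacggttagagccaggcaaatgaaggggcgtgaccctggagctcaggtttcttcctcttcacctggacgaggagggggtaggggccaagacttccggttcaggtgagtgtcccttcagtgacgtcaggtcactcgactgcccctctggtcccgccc

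RefSeq windows were matched for 8 of the 9 genes, 10 windows in all. TTTAT occurred 244 and 34 bases before the Cldn2 start, 51 bases before the Cldn15 start and 171 bases before the Tjp1 start, and it is present in 37.3% of the 32817 promoter windows of this length. With its flanking bases the Cldn2 match at 34 bases reads TATAAAA, the sequence of a TATA box, so its capitals need not mark a CDX site. TTCTGAGAA, 185 bases before the second Cldn7 start, was the only STAT match among these genes, against 7.01% of all windows. CTTTGA, the core of TCF and LEF sites (13.8% of windows), and AACCGGTT, a GRHL motif (0.116%), did not occur in the windows of these 8 genes, and the motifs searched share no overlapping match in them. The Ocln windows were the richest in GC, at 69.2% and 64% with 22 and 14 CpG, beside a median of 52.4% and 6 CpG over all windows. Tjp1 also had 22 CpG, whereas Cldn2 had 4 and 52% GC.

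Total counts ranged from 2.75 to 21.5 M (mega) per library, with medians of 15.35 M in Lgr5-high control, 5.32 in Lgr5-high cystine, 7.30 in Lgr5-low control and 14.8 in Lgr5-low cystine libraries. Of 8 stem cell markers 7 were called higher in Lgr5-high than in Lgr5-low cells on control diet and 6 on cystine diet. Lgr5 itself stood at 35.0 ± 9.05 CPM (the count scaled to library size with TMM factors, mean ± SD, n = 7) in Lgr5-high control libraries. Epithelial markers were abundant in every library, with the summed level of 6 genes between 857 and 2580 CPM. Lgr5-high control replicate 1 stood apart among its group at 4.05 M counts. It had the group's lowest Cldn2, Cldn15, Cldn3, Ocln and F11r and its highest Cldn23 and Tjp1.

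Per kilobase of exon, Cldn15 was the most abundant of the 9 transcripts in all 4 groups, followed by Cldn3 and Cldn2. In Lgr5-high control libraries the length-scaled level of Cldn15 averaged 109 ± 11.1 CPM per kb (SD, n = 7). Cldn3 followed at 22.85 ± 7.16, Cldn2 at 21.9 ± 2.75, Ocln at 13.85 ± 2.68, F11r at 11.4 ± 1.36 and Cldn7 at 9.37 ± 1.77 CPM per kb. Tjp1 at 1.495 ± 0.668, Cldn23 at 0.897 ± 0.902 and Cldn4 at 0.121 ± 0.262 CPM per kb closed the order. Among neighbours in this order, the library ranges of Cldn15 and Cldn3, of Cldn2 and Ocln, and of Cldn7 and Tjp1 did not overlap, and all other neighbours overlapped. In the other 3 groups Cldn15 also stood clear of the next gene, at means of 99.8 in Lgr5-high cystine, 147 in Lgr5-low control and 138 CPM per kb in Lgr5-low cystine libraries. The next break without overlap in those groups lay above Tjp1. Between these breaks the order was not resolved: Ocln had rank 4 in Lgr5-high control libraries and rank 6 in both Lgr5-low groups, and Cldn2 and Cldn3 changed places in Lgr5-high cystine libraries.

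**Figure D1:**
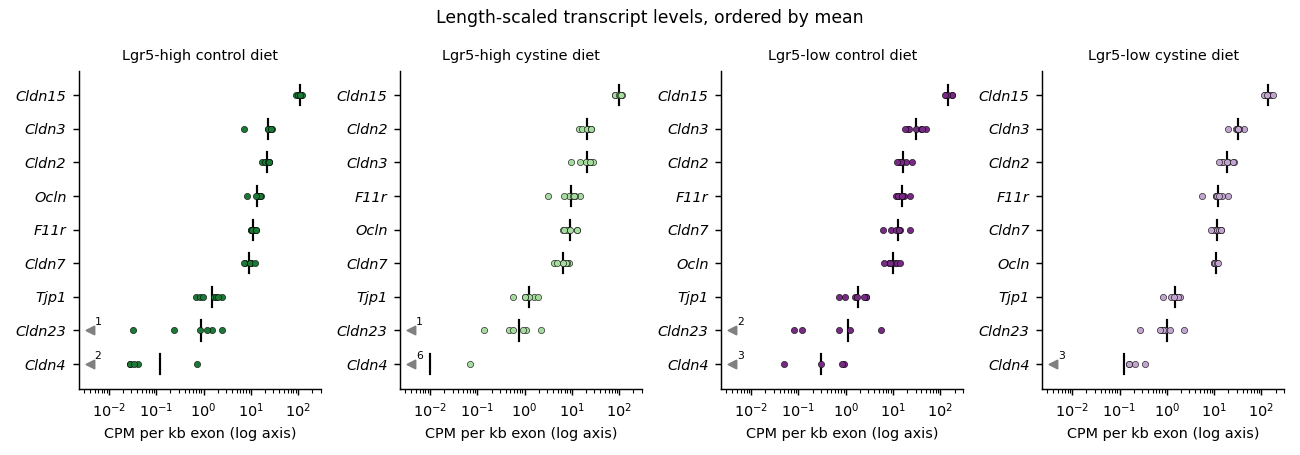
Length-scaled levels (CPM per kilobase of exon, log axis) of the 9 transcripts in each group, ordered by mean. Points are libraries, bars are means, and grey triangles with a number count libraries at 0. Cldn15 lies to the right of every other gene in all 4 panels, and Cldn4 is last in each.

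Among these genes 8 had enough counts to be tested, and Cldn4 did not. Differences were tested with edgeR's quasi-likelihood method over 12495 genes, and a gene is called where its Benjamini-Hochberg adjusted p is under 0.05. On control diet, Lgr5-high cells had less Cldn15 and more Cldn2 and Ocln than Lgr5-low cells in the estimates, but 0 of the 8 genes were called, beside 1.80% of all genes tested. Unadjusted p was under 0.05 for 3 of the 8, Cldn15, Ocln and Cldn2, against 12.9% of all genes. DESeq2 called 1 of the 8, Cldn15, where it called 410 of all 12495 genes, and limma-voom called 0, beside 6.25% of all genes. The median log2 fold change of the 8 genes was -0.40, with 6 negative, beside -0.01 over all genes with 50.6% negative. The 6 general epithelial markers had a median of -0.48 in this comparison.

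Cldn15 (ENSMUSG00000001739, chr5:136966616-136975858, GRCm38) encodes the cation channel claudin of crypt and villus. Its level ran from 188 CPM through a median of 231 to 256 in Lgr5-high control libraries, and from 273 through 289 to 381 in Lgr5-low control libraries. All 7 Lgr5-high libraries lay below all 7 Lgr5-low libraries; groups did not overlap for 0.960% of all genes tested. The log2 fold change was -0.43 ± 0.14 (SE, 95% interval -0.72 to -0.15), with an adjusted p of 0.107. On cystine diet Cldn15 ran from 169 through 224 to 246 CPM in Lgr5-high and from 242 through 276 to 378 CPM in Lgr5-low libraries. Here 6 of 7 Lgr5-high libraries lay below every Lgr5-low library, so that 0 of the 8 genes had groups without overlap, beside 1.30% of all genes, and the log2 fold change was -0.47 ± 0.14 (-0.75 to -0.18, adjusted p = 0.0609).

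Cldn15 was below the Lgr5-low level in all 40 alternative fits on each of the 2 diets. The log2 fold change ranged from -0.63 to -0.27 on control diet and from -0.91 to -0.31 on cystine diet. Its call depended on the setting. On control diet it was called by DESeq2 (adjusted p = 0.0411) and with a sex term in edgeR (0.0388, where 3.60% of all genes were called). On cystine diet it was called by DESeq2 (0.0432), limma-voom (0.0479) and with the sex term (0.0198, 4.95% of all genes). It was also called without Lgr5-low control replicate 1 (0.0421, 2.73% of all genes) or 3 (0.0355, 3.19%) and without Lgr5-high cystine replicate 4 (0.0426, 2.69%). The Lgr5-low control libraries belong to neither group compared on cystine diet and enter through the shared fit. The sex term divides libraries by Xist counts alone, not by a label of sex. Control replicates 1 to 3 and cystine replicates 1 and 2 of both populations form the Xist-low class. In Lgr5-high control libraries 7 Paneth cell markers summed to 22200 to 24200 CPM in the Xist-low and 88300 to 172000 CPM in the Xist-high class. In Lgr5-low control libraries the sums were 16500 to 30200 and 45900 to 95600 CPM. On cystine diet the classes overlapped. Sex cannot be told apart from what else differs between these replicates. Within the Xist-high class the Cldn15 difference was -0.27 and -0.31 on control and cystine diet, and within the Xist-low class -0.63 and -0.91.

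**Figure D2:**
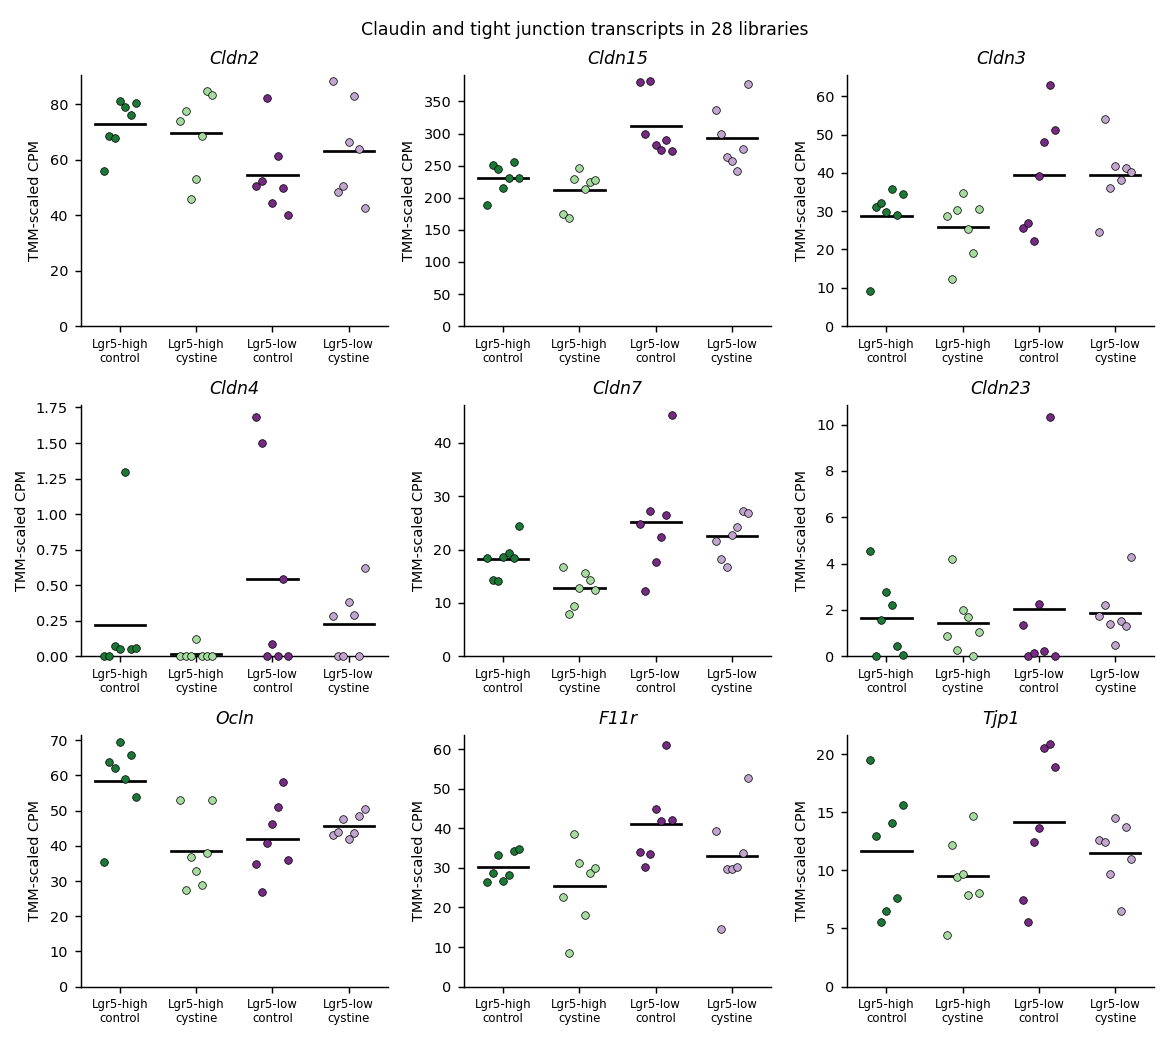
Levels (TMM-scaled CPM, axes from 0) of the 9 genes in each of the 28 libraries, by group. Points are libraries and bars are group means. The Lgr5-low Cldn15 points lie mostly above the Lgr5-high points, and the Ocln points of Lgr5-high control libraries lie mostly above the other groups.

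Cldn2 (ENSMUSG00000047230, chrX:139800828-139811386), the crypt cation channel, pointed the other way from Cldn15 on control diet. It ran from 56.1 through a median of 76.2 to 81.3 CPM in Lgr5-high libraries and from 40.2 through 50.7 to 82.5 CPM in Lgr5-low libraries. Most Lgr5-high libraries lay above most Lgr5-low libraries, but the Lgr5-low library at 82.5 CPM exceeded them all. The log2 fold change was 0.42 ± 0.18 (0.05 to 0.79, adjusted p = 0.298). On cystine diet the ranges were 45.9 to 85.0 and 42.55 to 88.4 CPM, with medians of 74.2 and 63.8 CPM, and the log2 fold change was 0.14 ± 0.18 (adjusted p = 0.802). The control diet difference was 0.68 within the Xist-high class (adjusted p = 0.0522) and 0.06 within the Xist-low class (adjusted p = 0.991).

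The proportion of these channel claudins to each other did not overlap between the populations on control diet. Cldn15 alone already did not overlap there and Cldn2 pointed the other way, so this proportion largely restates their levels. Cldn2 and Cldn15 together made up most counts of the 6 claudins in every library. Cldn2 took 20.7% ± 1.66 (SD, n = 7, range 18.8% to 23.4%) of the 6 claudins' counts in Lgr5-high control libraries and 12.5% ± 2.37 (9.82% to 16.1%) in Lgr5-low control libraries. These ranges did not overlap. On cystine diet the share was 21.9% ± 5.25 (14.6% to 28.7%) in Lgr5-high and 15.2% ± 4.33 (8.65% to 21.3%) in Lgr5-low libraries, and the ranges overlapped. The ratio of Cldn15 to Cldn2 CPM was 2.64 to 3.65 in Lgr5-high control libraries, all below the 4.48 to 7.51 of Lgr5-low control libraries. On cystine diet it was 2.175 to 4.99 in Lgr5-high and 2.92 to 8.88 in Lgr5-low libraries. These shares and ratios are descriptions of genes chosen with earlier results known. They were not tested, and no share over other gene pairs stands beside them. The summed level of the 6 claudins averaged 352.5 ± 35.0 CPM on control and 322 ± 30.3 CPM on cystine diet in Lgr5-high libraries. In Lgr5-low libraries it averaged 433 ± 48.8 and 420.5 ± 46.0 CPM. Cldn15 made up 59.3% to 78.5% of the 6 claudins' counts, so the sums largely restate its level.

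**Figure D3:**
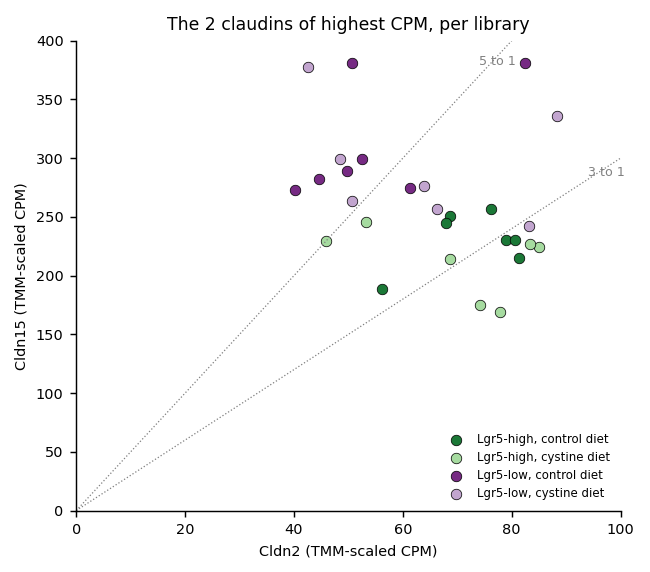
Cldn15 against Cldn2 (both TMM-scaled CPM) in the 28 libraries, coloured by group. Dotted lines mark ratios of 3 to 1 and 5 to 1 on this scale. All 7 Lgr5-high control libraries lie at ratios of 2.64 to 3.65, below the 7 Lgr5-low control libraries at 4.48 to 7.51.

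Cldn7 (ENSMUSG00000018569, chr11:69964779-69967885), a barrier-type claudin bound by Epcam, was lower in Lgr5-high than in Lgr5-low cells in all 40 alternative fits on each diet. On cystine diet it ran from 8.02 through a median of 12.8 to 16.7 CPM in Lgr5-high and from 16.7 through 22.7 to 27.2 CPM in Lgr5-low libraries. At full precision 6 of 7 Lgr5-high libraries lay below all Lgr5-low libraries. The log2 fold change of -0.81 ± 0.24 (-1.30 to -0.32, adjusted p = 0.0633) did not pass the threshold. On this diet 0 of the 8 genes were called by edgeR, beside 2.64% of all genes tested. Unadjusted p was under 0.05 for 3 of the 8, Cldn15, Cldn7 and Cldn3, against 15.5% of all genes. DESeq2 and limma-voom each called 2 of the 8, Cldn15 and Cldn7, beside 4.60% and 7.04% of all genes.

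Cldn7 on cystine diet was called by DESeq2 (adjusted p = 0.0363), by limma-voom (0.0349) and with the sex term (0.0397). It was also called without Lgr5-low control replicate 2 (0.0463, 2.45% of all genes) or 7 (0.0433, 2.76%), which belong to neither compared group and enter through the shared fit. Without the 7 libraries under 5 M counts its log2 fold change was -0.64 (adjusted p = 0.138). On control diet Cldn7 ran from 14.1 through 18.5 to 24.4 CPM in Lgr5-high and from 12.2 through 24.8 to 45.3 CPM in Lgr5-low libraries. These ranges overlapped widely, and the log2 fold change was -0.46 ± 0.24 (adjusted p = 0.437).

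The other barrier-type claudins gave no call. Cldn3 (chr5:134986214-134987472), which sits 39.3 kb from Cldn4 with 0 protein-coding genes between them, averaged 28.8 ± 9.01 and 39.5 ± 15.3 CPM in Lgr5-high and Lgr5-low control libraries, with ranges of 9.10 to 35.8 and 22.2 to 63.0 CPM. The log2 fold change was -0.45 ± 0.25 (adjusted p = 0.482) on control diet and -0.61 ± 0.26 (adjusted p = 0.224) on cystine diet. On control diet it was -0.65 within the Xist-high class (adjusted p = 0.0544) and -0.04 within the Xist-low class (adjusted p = 1). An antisense gene, Wbscr25, overlaps Cldn3, and whether counting used strand is not given in the sources used here. Cldn4 (chr5:134945119-134946934) was barely detected: the 7 libraries of a group summed to 24 counts in Lgr5-high control, 1 in Lgr5-high cystine, 26 in Lgr5-low control and 23 in Lgr5-low cystine cells. It was at 0 in 2, 6, 3 and 3 of the 7 libraries, where a count of 0 allows up to 0.153 to 1.10 CPM. Cldn23 (chr8:35824712-35826559) was low and uneven, with 0 to 133 counts per library and group means of 1.66 ± 1.67, 1.44 ± 1.41, 2.05 ± 3.75 and 1.85 ± 1.19 CPM in the same order. Its interval on control diet, -2.40 to 1.66 on the log2 scale, spans large differences in either direction.

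Ocln (ENSMUSG00000021638, chr13:100496507-100552718) was highest in Lgr5-high control libraries. It ran from 35.4 through a median of 62.25 to 69.4 CPM there and from 27.0 through 40.9 to 58.2 CPM in Lgr5-low control libraries. In 5 of 7 Lgr5-high libraries Ocln exceeded its highest Lgr5-low value, and the log2 fold change was 0.47 ± 0.18 (0.10 to 0.85, adjusted p = 0.218). On cystine diet the estimate had the opposite sign, at -0.24 ± 0.19 (adjusted p = 0.611), with 27.55 to 53.0 CPM in Lgr5-high and 41.9 to 50.4 CPM in Lgr5-low libraries. F11r (chr1:171437535-171464603) averaged 30.35 ± 3.62 and 41.1 ± 10.3 CPM in Lgr5-high and Lgr5-low control libraries, and 4 of the 7 Lgr5-high libraries lay below all Lgr5-low libraries. Its log2 fold change was -0.44 ± 0.24 (adjusted p = 0.466) on control diet and -0.37 ± 0.24 (adjusted p = 0.508) on cystine diet. Tjp1 (chr7:65296165-65527781) ran from 5.55 to 19.5 CPM in Lgr5-high and from 5.57 to 20.8 CPM in Lgr5-low control libraries. These ranges nearly coincided, and the log2 fold changes on control and cystine diet were -0.29 ± 0.33 and -0.29 ± 0.34.

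**Figure D4:**
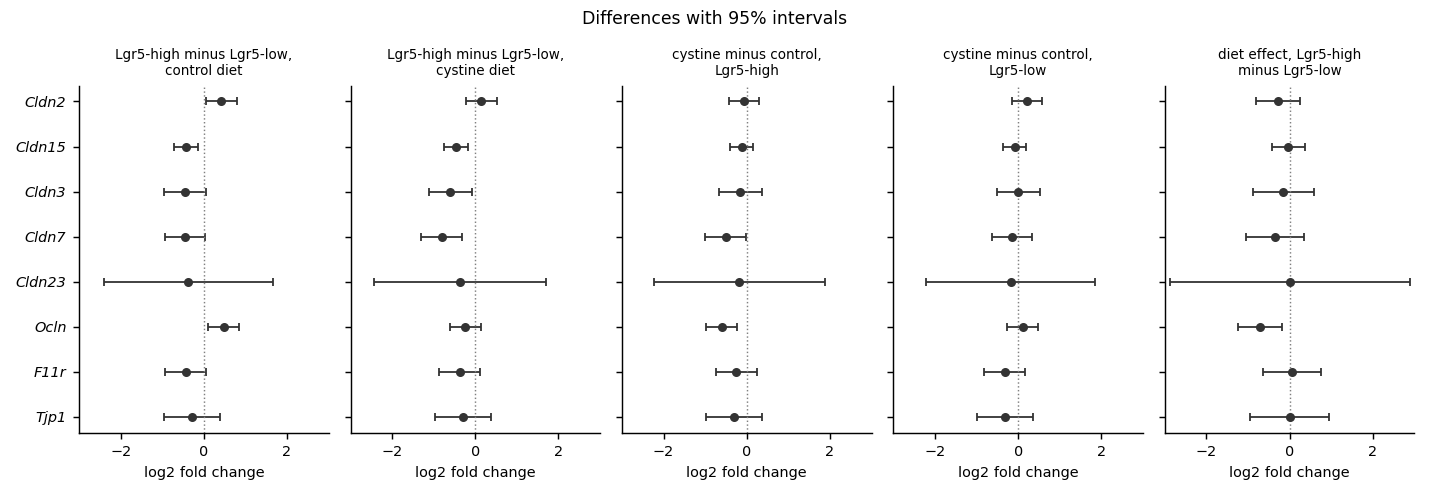
Log2 fold changes with 95% intervals for the 8 tested genes in the 5 comparisons, from edgeR's quasi-likelihood fit. Points left of 0 are lower in the first-named group. Intervals exclude 0 for Cldn2, Cldn15 and Ocln in the first panel, Cldn15, Cldn3 and Cldn7 in the next, Cldn7 and Ocln for diet in Lgr5-high cells and Ocln in the last panel, but 0 of 8 genes passed the adjusted threshold in any panel.

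Markers of several cell classes moved with the population comparisons. Of 6 general epithelial markers 2 were called lower in Lgr5-high cells on control and 3 on cystine diet. Their sums were 1200 to 1550 and 857 to 1680 CPM in Lgr5-high and 1060 to 2580 and 1600 to 2150 CPM in Lgr5-low control and cystine libraries. Of 8 goblet cell markers 6 were called lower in Lgr5-high cells on each diet, with summed levels of 6990 to 18800 and 11000 to 19600 CPM in Lgr5-high and 24800 to 54200 and 17300 to 48000 CPM in Lgr5-low control and cystine libraries. Of 8 enteroendocrine markers 6 were called lower on control and 5 on cystine diet. Of 12 enterocyte markers 0 and 1 were called lower, with overlapping sums of 2150 to 15500 CPM in Lgr5-high and 5990 to 36000 CPM in Lgr5-low libraries. Of 7 Paneth cell markers 0 were called on either diet, with positive median log2 fold changes of 0.63 and 0.35 and overlapping sums of 22200 to 172000 CPM in Lgr5-high and 16500 to 103000 CPM in Lgr5-low libraries. Of 12 tested macrophage markers 0 were called on control diet and 10 were called higher in Lgr5-high cells on cystine diet, where their sums were 24.7 to 724 CPM in Lgr5-high and 38.1 to 164 CPM in Lgr5-low libraries. The part of any of these lists in the Cldn15, Cldn7 and other claudin differences was not tested. In such bulk libraries, fewer cells of a type and less RNA of a gene per cell cannot be told apart. Endothelial Cldn5 had at most 1 count in any group.

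In Lgr5-high cells the cystine diet went with lower Ocln and Cldn7 in the estimates, and 0 of the 8 genes were called, beside 0.168% of all genes tested. All 8 log2 fold changes were negative, with a median of -0.22, beside -0.02 over all genes with 52.7% negative. The 6 general epithelial markers had a similar median of -0.21 in this comparison. Unadjusted p was under 0.05 for 2 of the 8, Ocln and Cldn7, against 4.3% of all genes. DESeq2 called 0 of the 8, and its share of all genes is not given here. Limma-voom called 1, Ocln, where it called 0.304% of all genes. The control libraries here are also those of the control diet population comparison, so the 2 sets of estimates are not independent.

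Ocln in Lgr5-high cells stood at 35.4, 62.25 and 69.4 CPM (lowest, median, highest) on control diet and at 27.55, 36.8 and 53.0 CPM on cystine diet. The lowest control value was the shallow replicate 1, and the other 6 control libraries lay above all 7 cystine libraries. For 0 of the 8 genes were the diet groups without overlap, beside 0.224% of all genes. The log2 fold change was -0.60 ± 0.19 (-0.98 to -0.22, adjusted p = 0.346), and its p had rank 92 of 12495 genes. Limma-voom with sample quality weights gave -0.75 (adjusted p = 0.0232). The estimate was negative in all 39 alternative fits, from -0.75 to -0.44. It was -0.68 without Lgr5-high control replicate 1 (adjusted p = 0.182) and -0.55 without the libraries under 5 M counts (adjusted p = 0.917). Within the Xist-high class it was -0.70 (adjusted p = 0.128) and within the Xist-low class -0.44 (adjusted p = 1).

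Macrophage markers moved with diet in the same libraries. Of 12 tested markers 9 were called higher in Lgr5-high cells on cystine than on control diet, with summed levels of 31.4 to 66.8 CPM on control and 24.7 to 724 CPM on cystine diet. The list includes Clec4f, a gene of liver macrophages, at 8.79 ± 2.61 CPM on control and 69.9 ± 45.0 CPM on cystine diet. Summed levels of 8 hepatocyte (liver cell) markers were 361 to 1050 CPM on control and 415 to 1060 CPM on cystine diet, with 0 called. Where these liver-type transcripts came from was not tested. The 2 cystine libraries with the most Ocln, replicate 1 at 52.9 and replicate 7 at 53.0 CPM, had macrophage sums of 24.7 and 424 CPM. The remaining cystine libraries had Ocln of 27.55 to 37.9 CPM and macrophage sums of 218 to 724 CPM. Depth also differed, with 3 of 7 cystine and 1 of 7 control libraries under 5 M counts. The part of macrophage or liver-type transcripts or of depth in the Ocln difference was not tested.

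Cldn7 in Lgr5-high cells averaged 18.25 ± 3.46 CPM on control and 12.8 ± 3.16 CPM on cystine diet, with ranges of 14.1 to 24.4 and 8.02 to 16.7 CPM. The ranges overlapped, and the log2 fold change was -0.51 ± 0.24 (-1.0 to -0.01), short of the adjusted threshold. Cldn2, the claudin that IL-22 is known to raise, differed by -0.07 ± 0.18 between diets in Lgr5-high cells, with a 95% interval of -0.44 to 0.31. Cldn15 differed by -0.12 ± 0.14, Cldn3 by -0.15 ± 0.26, F11r by -0.26 ± 0.24 and Tjp1 by -0.31 ± 0.34.

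In Lgr5-low cells 0 of the 8 genes were called between diets by edgeR, DESeq2 or limma-voom, where edgeR called 0% of all genes. The shares of all genes called by DESeq2 and limma-voom are not given here, so their counts of 0 have no background beside them. Unadjusted p was under 0.05 for 0 of the 8, against 2.97% of all genes. Ocln stood at 27.0, 40.9 and 58.2 CPM (lowest, median, highest) on control and at 41.9, 43.9 and 50.4 CPM on cystine diet. The cystine values lay inside the control range, and the log2 fold change was 0.11 ± 0.19. Cldn2 differed by 0.21 ± 0.18 and Cldn7 by -0.15 ± 0.24. Cldn3 differed by 0.00 ± 0.25 over all libraries, but by -0.35 within the Xist-high and 0.67 within the Xist-low class.

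The difference between these diet effects, Lgr5-high minus Lgr5-low, was furthest from 0 for Ocln, at -0.71 ± 0.26 (-1.24 to -0.18). Its p had rank 65 of 12495 genes, and its adjusted p was 1.0. None of the 8 genes was called, 0 of 8 by edgeR, DESeq2 or limma-voom, beside 0% of all genes by edgeR. The shares called by DESeq2 and limma-voom are not given here. Ocln was the 1 gene of 8 at an unadjusted p under 0.05, against 3.32% of all genes. The estimate was negative in all 39 alternative fits, from -0.84 to -0.55. For Cldn7 the difference was -0.35 ± 0.34 and for Cldn2 -0.28 ± 0.26.

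**Figure D5:**
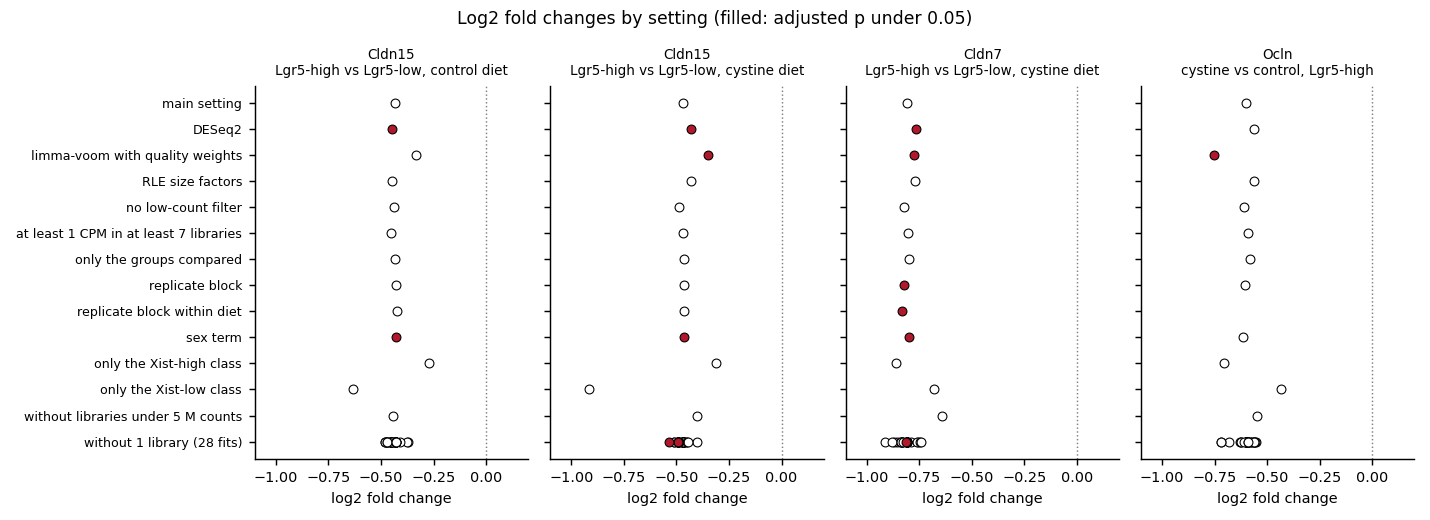
Log2 fold changes of Cldn15, Cldn7 and Ocln under each setting, filled where the adjusted p is under 0.05. The lowest row holds the 28 fits that leave out 1 library, and Ocln has no point for the block within diet, which absorbs the diet effect. Every point lies left of 0, while filled points occur under some settings only.

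Among other junction genes, 94 of 95 listed symbols were in the table and 67 were tested. The only one called was Cdh17, an intestinal cadherin, which was lower in Lgr5-high cells on both diets. It averaged 214 ± 24.9 CPM in Lgr5-high and 335 ± 71.2 CPM in Lgr5-low control libraries, a log2 fold change of -0.65 ± 0.16 (adjusted p = 0.0227). On cystine diet it averaged 186 ± 34.8 and 281 ± 61.1 CPM, a log2 fold change of -0.59 ± 0.16 (adjusted p = 0.0319). Leaving out 1 library ended the control diet call for Lgr5-low control replicates 6 (adjusted p = 0.0527) and 7 (0.0660) and Lgr5-high control replicates 4 (0.0531) and 5 (0.0553). It ended the cystine diet call for Lgr5-low cystine replicates 6 (0.0844) and 7 (0.120) and Lgr5-high cystine replicates 2 (0.0746), 5 (0.0681) and 7 (0.0675). Without the libraries under 5 M counts the adjusted p was 0.0957 and 0.0537 on the 2 diets. So 1 of 67 genes was called on each diet, beside 1.80% and 2.64% of all genes.

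By group of junction genes, the desmosome list had all 8 genes lower in Lgr5-high cells on cystine diet, with 0 called. Its median log2 fold change was -0.58, beside -0.04 over all genes and -0.62 over the 6 general epithelial markers. Its gene of lowest p there was Dsg2, a desmosomal cadherin, at 29.9 ± 7.01 CPM in Lgr5-high and 45.65 ± 7.55 CPM in Lgr5-low cystine libraries (log2 fold change -0.62 ± 0.21, adjusted p = 0.111). Dsg2 was also the desmosome gene of lowest p for diet in Lgr5-high cells, at 45.8 ± 6.99 CPM on control diet (log2 fold change -0.62 ± 0.21, adjusted p = 0.529). On control diet the lowest desmosome p was that of Pkp2, a plakophilin, at -0.74 ± 0.27 (adjusted p = 0.170). Of 21 tested claudin partners and regulators 14 were lower in Lgr5-high cells on control and 18 on cystine diet, with medians of -0.39 and -0.40 and 0 called. Spint1 and Spint2, inhibitors of the proteases that cleave Epcam, had the lowest p on control and cystine diet, at -0.62 ± 0.21 (adjusted p = 0.134) and -0.60 ± 0.19 (adjusted p = 0.0851).

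In the remaining junction groups 0 genes other than Cdh17 were called in any comparison. Of 18 tested plaque and polarity genes 7 were lower in Lgr5-high cells on control and 12 on cystine diet, with medians of 0.09 and -0.15, and Tjp3, a relative of Tjp1, had the lowest p on cystine diet at -0.96 ± 0.33 (adjusted p = 0.111). For the difference of diet effects 14 of the 18 were negative, with a median of -0.45, beside -0.03 over all genes. Of 8 other membrane proteins 3 and 4 were lower, and Lsr, the lipolysis-stimulated receptor of tricellular contacts, stood at -0.66 ± 0.22 on cystine diet (adjusted p = 0.0950). Of 20 other claudins 2 were tested, Cldn8 and Cldn12. Cldn12 averaged 14.4 ± 4.01 CPM and Cldn8 5.30 ± 4.0 CPM in Lgr5-high control libraries, with 0 called in any comparison. Stat3, the mediator of IL-22 signalling, had log2 fold changes of -0.71 ± 0.38 and -0.81 ± 0.38 between the populations (adjusted p = 0.449 and 0.293) and 0.04 ± 0.38 between the diets in Lgr5-high cells. The IL-22 receptor gene Il22ra1 averaged at most 0.186 CPM in any group.

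Correlations over the 28 libraries are given as descriptions, since libraries share group, depth and population effects. The genes most like Cldn15 in log2 CPM were Mdh2 (malate dehydrogenase of mitochondria, Pearson r = 0.87, 0.67 after removing group means) and Tm6sf2 (0.86 and 0.65). Those most like Cldn2 were Slc7a4 (0.75 and 0.70) and Srbd1 (0.73 and 0.67). Cldn3 was most like Ptk2b (0.87 and 0.85) and Rps6ka1 (0.86 and 0.82), Cldn7 most like Marchf8 (0.76 and 0.64) and Fam234a (0.75 and 0.46). Ocln was most like Ifi47 (0.63 and 0.66) and Zfp706 (0.63 and 0.55), and F11r most like Maf (0.80 and 0.71) and Gbf1 (0.79 and 0.76). Tjp1 was most like Fhip2a (0.74 and 0.78) and Tmf1 (0.71 and 0.68). For the sparse Cldn4 and Cldn23 the nearest genes reached r of 0.60 (Abcg8), 0.58 (Ido1), 0.62 (Add1) and 0.60 (Zbed6), which are no finding at these counts. Between the 9 genes themselves, Cldn3 and Ocln had the highest r after removing group means, 0.63, and Cldn2 and Cldn15 had -0.35 over all libraries and -0.03 after removing group means.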

How the data were processed

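The values are the authors' deposited estimated counts, 1 whole number per gene and library, made with Salmon 1.3.0 and build mm10 per the submitters' processing notes; poly(A) libraries were directional per the labels' protocols. How transcripts were summed to genes, and whether strand was used, is not given in the sources used here. The 9 genes, the gene lists and the tests were chosen with earlier results of these data known. Genes were named by rule: all 9, called genes of each junction list or its gene of lowest p, and the 2 genes most like each of the 9 by Pearson r of log2(CPM + 0.5) among genes with a mean of at least 5 CPM; Stat3, Il22ra1, Cldn5 and Cldn8 or Cldn12 beyond that rule were named for their roles after values were seen.

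Counts were scaled by TMM and tested in 1 model of 4 group means (edgeR 4.0.16 quasi-likelihood, robust, R 4.3.3, filterByExpr), two-sided, Benjamini-Hochberg adjusted over 12495 genes at 0.05, after the scripts were tested on simulated data. The common biological coefficient of variation was 0.629. Standard errors are Wald errors from the fitted quasi-dispersion. Alternatives were DESeq2 1.42.0, limma-voom (limma 3.58.1), other size factors, filters, covariates, classes by Xist (50 CPM), depth and leaving out each library. Floors of 3 counts cover counting error only. Over 84 pairs of libraries within groups, chi-square per gene was 14.0 to 256, so none were duplicates within sampling noise. Exon lengths and coordinates come from GENCODE M21 (GRCm38), promoter windows from RefSeq.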

Additional observations from a re-analysis of the deposited data

Results flagged for a closer look

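Library values were compared within each of 36 groups (9 genes in 4 groups), and 4 held a library far from its neighbours by Dixon's 95% criterion. The criterion flags about 1 in 20 groups of normally distributed values. That rate does not hold for sparse counts such as those of Cldn4, so the number of flags shows no excess. Cldn3 was 9.10 CPM (36 counts) in Lgr5-high control replicate 1, against 28.9 CPM in the next library. Cldn4 was 1.30 CPM (20 counts) in Lgr5-high control replicate 5, against 0.0750 CPM in the next, and 0.124 CPM (1 count) in Lgr5-high cystine replicate 4, where the other 6 libraries had 0. With 6 libraries at 0, any count in the remaining library is flagged. Cldn23 was 10.3 CPM (133 counts) in Lgr5-low control replicate 6, against 2.27 CPM in the next. No explanation was tested.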

How the results depend on the processing

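Of the 8 tested genes, 0 were called in the 5 comparisons by edgeR. On control diet the population comparison gave 1 with DESeq2 and 1 with the sex term. On cystine diet it gave 2 with DESeq2, 2 with limma-voom and 2 with the sex term, and 0 to 1 when 1 library was left out. The diet comparison in Lgr5-high cells gave 1 with limma-voom. The replicate block gave 1 on cystine diet (Cldn7, log2 fold change -0.82, adjusted p = 0.0355, 3.09% of all genes called), as did the block within diet (1 gene, -0.83, adjusted p = 0.0422, 3.63%). Replicate numbers were not treated as pairs in the main fit, since the labels do not say that they pair libraries. Same-numbered libraries of the 2 populations correlated at -0.0948 to 0.251 (7 of 14 over 0.1, 7 best matched to their own number). Mean r with differently numbered libraries was -0.0409 to 0.0088, below the same-number r except for cystine replicate 7. Within each diet, same-numbered libraries also had the same Xist class. Pairing of the populations was therefore possible and not settled. Same-numbered libraries of the 2 diets correlated at -0.0988 to 0.140 (6 of 14 over 0.1).

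Of the junction list genes, 1 was called in each population comparison, beside 1.80% and 2.64% of all genes on control and cystine diet. On control diet limma-voom called 4, beside 6.25% of all genes, and the Xist-high class 5, beside 674 of 13761 genes. The fit of only the compared groups, the Xist-low class (3 libraries per control group) and libraries of at least 5 M counts gave 0. The shares of all genes called in these fits are not given here, so their counts of 0 have no background. Leaving out 1 library gave 0 to 4 (4 without Lgr5-low control replicate 3). On cystine diet limma-voom called 7, beside 7.04% of all genes, and the sex term 2, beside 4.95%. Libraries of at least 5 M counts gave 2, beside 279 of 13855 genes. RLE size factors, no low-count filter and the Xist-low class (2 libraries per cystine group) gave 0, again without the shares of all genes. Leaving out 1 library gave 0 to 2 (2 without Lgr5-high control replicate 1), beside 169 to 413 of all genes. Counts over all genes moved too, to 124 (without Lgr5-high control replicate 5) and 456 (without Lgr5-low control replicate 3) from 225 on control diet. By longest transcript 4, 2, 3 and 2 genes changed rank in the length-scaled order (Lgr5-high control, Lgr5-high cystine, Lgr5-low control, Lgr5-low cystine), and by median 2 in each group but the first. By longest transcript only the length divisor changes, for example from 1.948 to 1.335 kb for Cldn7, while Cldn3 stays at 1.259 kb. Why the counts of called genes moved was not tested. Cldn4 had too few counts to be tested, and the Cldn23 estimate for control diet was negative in 36 and positive in 4 of 40 fits.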
